A study of Homo sapiens with 9 samples.

Results

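KISS1R encodes the kisspeptin receptor, formerly GPR54. It was picked from an array study of HEK293, an established line from human embryonic kidney. In that study cells were treated to deplete or to overproduce the histone acetyltransferase MOF. The gene was chosen by its difference between knockdown and wild type cells, the largest rise of all genes tested in that comparison, so its levels in those groups are given as a description, with no test. It is read by 1 probe set of 54675 on the array, and is 1 of 19775 genes named by a probe set with a single symbol. MOF is the product of KAT8 and acetylates lysine 16 of histone H4. The groups were HEK293 cells given a small interfering RNA against MOF (knockdown, 3 arrays), HEK293 cells transfected with a plasmid encoding MOF (overexpression, 3 arrays) and HEK293 cells with no treatment (wild type, 3 arrays). All were grown in the same serum medium, and the sources used here do not give the time between transfection and RNA extraction. The design text names samples treated with double-stranded RNA against a fluorescent protein as controls. None is among the 9 analysed here, so transfection and the change in MOF cannot be told apart in a difference from wild type. No label names separate cultures for the replicates, so p-values measure only the spread between arrays, and that spread may be technical.

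Kisspeptins are peptides cut from the product of KISS1, which was first described as a suppressor of metastasis in melanoma cells. Their receptor is a rhodopsin-type receptor that couples to Gq and G11, opens the phospholipase C, calcium and protein kinase C route and activates ERK kinases. In the hypothalamus it stands on neurons that release GnRH, and loss of the receptor in people prevents puberty. Receptor kinases and arrestins then quiet the receptor and draw it into the cell.

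The arrays shared a scale, with a trimmed mean signal of 1500.2 on each. The added poly-A controls were brighter by 2.22-fold on the 6 arrays of replicates 2 and 3 than on the 3 replicate 1 arrays, 1 of which belongs to each group, and values are given within replicates where this bears on a result. KAT8 averaged 551.6 ± 140 in knockdown cells, 4695 ± 88.9 in overexpression cells and 3318 ± 448 in wild type cells (SD, n = 3 each). Its fall after knockdown passed the test (log2 difference -2.61, limma adjusted p = 4.7e-05). Its log2 difference of 0.51 between overexpression and wild type did not pass (limma adjusted p = 0.259). Of 8 genes typical of HEK293 cells 7 were measured. Among them the neurofilament gene NEFL averaged 7915 in knockdown, 8281 in overexpression and 7641 in wild type cells. PAX2, the dimmest, averaged 195, 618 and 415 in the same order and fell after knockdown (limma adjusted p = 0.00513). LIN28B rose by 0.30 on the log2 scale (limma adjusted p = 0.0145). In all, 1 of the 7 rose and 1 fell, where 19.4% of all genes tested passed. The signals of 14 measured genes of blood, liver, pancreas, muscle and other tissues summed to between 886 and 2024 per array in knockdown cells, between 849 and 1238 in overexpression cells and between 1078 and 1525 in wild type cells, and none of the 14 averaged above 450.1 in any group. The arrays measure bulk RNA, so more cells with KISS1R RNA and more of it per cell cannot be told apart.

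The KISS1R signal was 6844.3, 10927 and 8496.2 on the knockdown arrays of replicates 1, 2 and 3. It was 1239.7, 1280.9 and 1751.4 on the overexpression arrays. It was 624.4, 869.9 and 698.4 on the wild type arrays. The 3 groups did not overlap. Knockdown stood highest, overexpression next and wild type lowest, with means of 8756 ± 2054, 1424 ± 284 and 731 ± 126 (SD, n = 3 each). The lowest knockdown array was 7.87 times the highest wild type array and 3.91 times the highest overexpression array, and the lowest overexpression array was 1.43 times the highest wild type array.

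**Figure D1:**
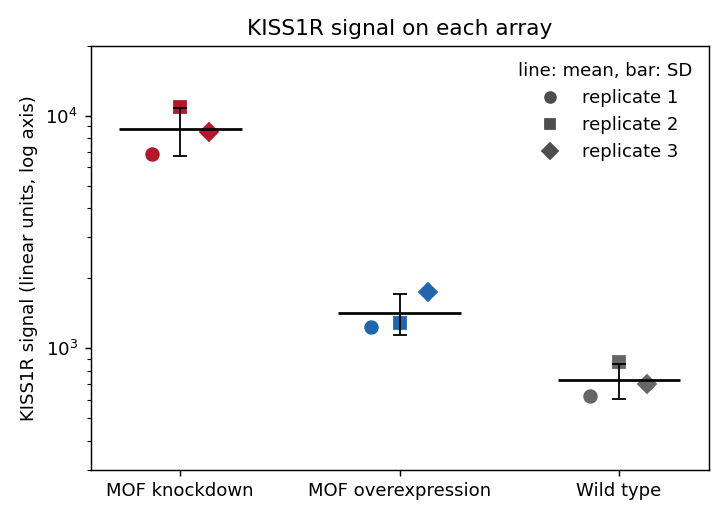
KISS1R signal (linear units on a log axis) on each of 9 arrays, by group, with marker shapes for the replicate numbers, the group mean as a line and the SD as a bar. The knockdown arrays lie between 6844.3 and 10927, the overexpression arrays between 1239.7 and 1751.4 and the wild type arrays between 624.4 and 869.9.

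On the log2(signal + 1) scale the mean difference between knockdown and wild type was 3.57, an 11.9-fold higher signal in knockdown cells. Taken between arrays of the same replicate number, the fold was 10.9 for replicate 1, 12.5 for replicate 2 and 12.1 for replicate 3. The difference therefore had nearly the same size in the replicate 1 arrays and in the others. Against overexpression cells, knockdown cells were 6.11-fold higher (log2 difference 2.61), and by replicate number 5.52-, 8.52- and 4.85-fold higher. That value shares the knockdown arrays with the choice of the gene and has no test either.

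The overexpression signal was 1.94 times that of wild type, a log2 difference of 0.96, with all 3 overexpression arrays above all 3 wild type arrays. By replicate number the ratio was 1.98, 1.47 and 2.51. The wild type arrays took part in the choice of KISS1R, so this difference too is given as a description, with no test.

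Ranks placed KISS1R among the genes of each array. A rank is by the brightness of probe sets, which differ in how well they bind, so it is not an order of transcript amounts. Among 19775 genes KISS1R ranked 2735, 1650 and 2172 on the knockdown arrays of replicates 1, 2 and 3, brighter than 86.2%, 91.7% and 89.0% of genes. On the overexpression arrays it ranked 8234, 8004 and 7222, brighter than 58.4%, 59.5% and 63.5%. On the wild type arrays it ranked 9773, 9074 and 9494, brighter than 50.6%, 54.1% and 52.0%. KISS1R thus lay near the middle of the genes in untreated cells and among the brighter genes in knockdown cells, and its wild type mean, at 9.50 on the log2 scale, was above the limit of 7.56 used to leave out dim probe sets.

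Of the 12036 genes tested, KISS1R had the largest difference between knockdown and wild type in either direction, and the only one of at least 3 on the log2 scale. Among rises, the next were IFIT3, an interferon-induced gene, with signals of 1106 in knockdown and 172 in wild type cells (log2 difference 2.68), and CRACR2B, a regulator of calcium release-activated channels, with 1175 and 257 (2.19). Between knockdown and overexpression the KISS1R difference ranked 2 among rises, and between overexpression and wild type it ranked 66. Where dim probe sets were kept, KISS1R ranked 4 of 19775 genes. The 3 genes above it, SAMMSON, NRAD1 and CD69, averaged 66.6, 76.2 and 51.7 in knockdown cells and 3.47, 4.03 and 3.33 in wild type cells. The KISS1R signal was also more variable than most of similar brightness. Its SD within groups, pooled over the 3 groups, was 0.29 on the log2 scale, above that of 87.4% of the 1000 probe sets nearest to it in mean signal, whose median SD was 0.17. That mean was 11.01, while the KISS1R group means were 13.07 in knockdown, 10.46 in overexpression and 9.50 in wild type cells. Brightness was therefore not matched within groups.

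**Figure D2:**
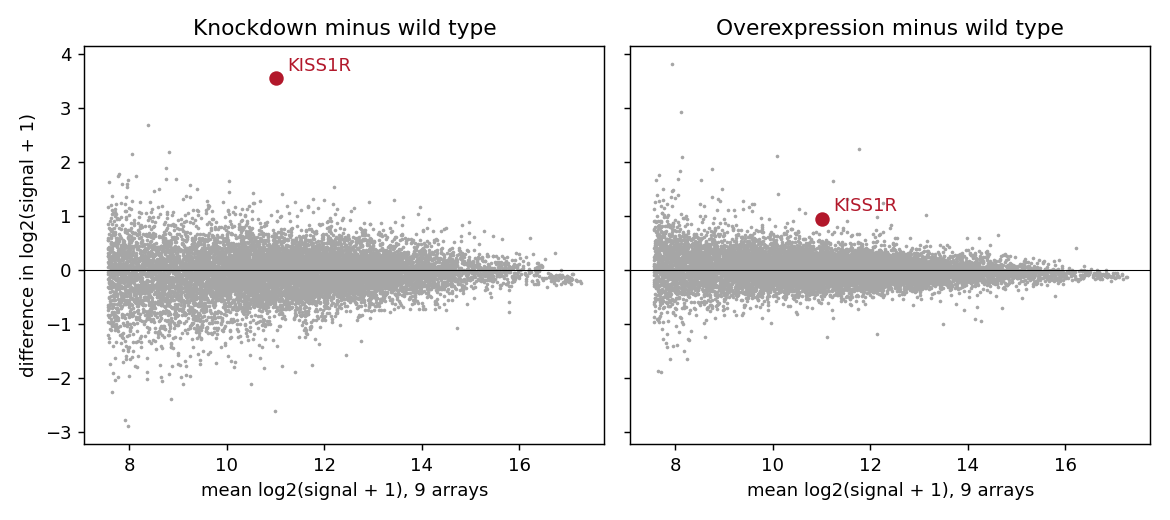
Difference in log2(signal + 1) between knockdown and wild type (left) and between overexpression and wild type (right), plotted against the mean log2(signal + 1) of 9 arrays, with 1 grey point per gene for 12036 genes. KISS1R (red) stands at 3.57 on the left, apart from all other genes, and at 0.96 on the right, where it ranked 66 among rises.

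The ligand was not measurable here. KISS1 had signals of 13.8, 42.4 and 12.8 in knockdown cells, 10.4, 40.2 and 31.1 in overexpression cells and 7.5, 68.6 and 10.8 in wild type cells, and the groups overlapped. Its mean was above that of only 10.7% of all probe sets, and it was left out of the test as dim. GNRHR, the receptor of GnRH, lay between 64.3 and 127.0 in knockdown cells and between 58.9 and 143.4 in wild type cells, and was left out as well. Of 34 ligands, receptors and developmental genes of the reproductive axis, 31 had a probe set and 9 were bright enough to test. After knockdown 1 of these 9 rose and none fell, where 19.4% of the 12036 genes passed the test. It was LIN28B, an RNA-binding protein tied to the timing of puberty, with a log2 difference of 0.30 (SE 0.07, limma adjusted p = 0.0145). That call was lost without knockdown replicate 2 (adjusted p = 0.0562), which left none called, and without wild type replicate 1 the list had 2 calls, where 11.5% and 16.6% of all genes passed. TAC1, which encodes substance P, had signals of 160 in knockdown and 281 in wild type cells, and WDR11 and PROK2 had log2 differences of -0.35 and 0.41. None of these 3 passed the test. With the replicate number as a block in the fit, WDR11 passed (limma adjusted p = 0.00266), and the list had 2 calls, 1 higher and 1 lower, where 33.4% of all genes passed. Between knockdown and overexpression 3 of the 9 were higher and 1 lower, where 18.4% of all genes passed. Under the block that comparison also had 3 higher and 1 lower, where 32.6% of all genes passed.

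Genes that act with or after the receptor were read from lists of the kisspeptin pathway that left out KISS1R. The lists held 149 genes, of which 130 had a probe set and 100 were tested. After knockdown 4 rose and 12 fell, 16 of 100 against 19.4% of all genes tested, a share near the background. The median log2 difference was 0.03, against -0.04 over all genes. With the replicate block 30 were called, 12 higher and 18 lower, where 33.4% of all genes passed. With replicates 2 and 3 alone 28 were called, 13 higher and 15 lower, where 23.9% of all genes passed. After overexpression none of the 100 passed in limma, where 0.631% of all genes passed. Between knockdown and overexpression 8 were higher and 13 lower, where 18.4% of all genes passed. With the replicate block 17 were higher and 16 lower there, where 32.6% of all genes passed.

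The G protein and calcium list held the largest single change of the pathway. Of 34 tested genes 1 rose and 6 fell after knockdown, 20.6% against 19.4% of all genes and so near the background, with a median log2 difference of 0.02. GNG2, a gamma subunit of heterotrimeric G proteins, had signals of 174.8, 169.0 and 191.7 in knockdown cells, against 1083.6, 857.5 and 876.3 in wild type cells. Overexpression cells lay between at 546.9, 691.1 and 561.8, and the 3 groups did not overlap. GNG2 fell 5.22-fold after knockdown (log2 difference -2.38, SE 0.18, limma adjusted p = 0.000107). It kept its call whichever of the 9 arrays was left out. Of its 4 probe sets 1 was bright enough to test.

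Most of the other called genes of the list fell too. GNG4, another gamma subunit, averaged 2127 ± 102 in knockdown and 3608 ± 153 in wild type cells (SD, n = 3 each), a fall of 0.76 on the log2 scale. It averaged 4499 ± 108 in overexpression cells. GNB5, a beta subunit that pairs with certain RGS proteins, fell by 0.96 (SE 0.18) and GNG7 by 1.00 (SE 0.26). The other tested probe set of GNG7 had a log2 difference of -0.04 and did not pass. PRKCQ, a protein kinase C, fell by 0.76 (SE 0.17) and PPP3CA, the catalytic subunit of the phosphatase calcineurin, by 0.31 (SE 0.08). PRKCB, another protein kinase C, was not called on its brightest probe set (log2 difference -0.41). Dimmer ones of PRKCB fell by 0.54 and 0.72 (limma adjusted p = 0.0404 and 0.0471), and another, at -0.72, did not pass. The beta subunit gene GNB2 rose by 0.46 (SE 0.13). The alpha subunits through which the receptor signals did not pass the test. GNAQ averaged 5773 ± 901 in knockdown and 5368 ± 689 in wild type cells, and GNA11 averaged 6919 ± 107 and 6784 ± 223 (SD, n = 3 each). PLCB1, a phospholipase C of this route, had a log2 difference of -0.48 and PLCB3 one of 0.59, and neither passed. Without knockdown replicate 2, wild type replicate 2 or wild type replicate 3 the list had 4 calls, all lower, where 11.5%, 10.5% and 12.8% of all genes passed. GNG7 was lost without knockdown replicates 2 or 3 or wild type replicates 2 or 3 (adjusted p up to 0.0938), PPP3CA without knockdown replicates 1 or 2 or wild type replicates 2 or 3 (up to 0.0801), PRKCQ without wild type replicate 2 (0.0549) and GNB2 without knockdown replicates 2 or 3, overexpression replicate 3 or wild type replicates 2 or 3 (up to 0.119). The list had 11 calls with the replicate block, 3 higher and 8 lower, where 33.4% of all genes passed.

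Of 26 tested genes that quiet or internalize receptors, 2 rose and 3 fell after knockdown, 19.2% against 19.4% of all genes and so at the background, with a median log2 difference of 0.14. GRK3, a kinase that phosphorylates active receptors, had signals of 1127.1, 1135.1 and 1173.6 in knockdown cells. It had 2456.0, 2477.7 and 2331.2 in overexpression cells and 2953.0, 2617.8 and 2893.2 in wild type cells, so that the groups did not overlap and the knockdown arrays were the lowest. GRK3 fell 2.46-fold after knockdown (log2 difference -1.30, SE 0.10, limma adjusted p = 0.000107). Another of its probe sets fell by 0.78, and the other one had a log2 difference of -0.22 that did not pass the test. The related kinase gene GRK2 (log2 difference -0.25) and the arrestin gene ARRB1 (-0.08) did not pass on the brightest tested probe set of each. A dimmer probe set of ARRB1 fell by 0.57 (limma adjusted p = 0.0414). The other tested ones of ARRB1 had log2 differences from -0.57 to -0.12 and did not pass.

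The RGS genes, whose products speed the shutdown of G proteins, went in both directions. RGS16 averaged 1838 ± 182 in knockdown and 981 ± 271 in wild type cells (SD, n = 3 each), a rise of 0.93 on the log2 scale (SE 0.23), and RGS2, which acts on Gq, rose by 0.50 (SE 0.12). RGS5 fell by 0.72 (SE 0.17), while its other tested probe sets had log2 differences from -0.67 to -0.11 and did not pass. The brightest tested probe set of RGS20 had a log2 difference of 0.21 and did not pass. Its other tested probe set averaged 140.6 in knockdown and 454.3 in wild type cells and fell (limma adjusted p = 0.00335). AP2S1, a subunit of the endocytic adaptor AP2, fell by 0.32 (SE 0.07). The endocytic genes AP2B1 and CLTB did not pass on the brightest probe set of each. A dimmer one of AP2B1 rose by 0.59 and a dimmer one of CLTB fell by 0.41 (limma adjusted p = 0.0116 and 0.0388). Without wild type replicate 2 the list had 3 calls, all lower, where 10.5% of all genes passed. RGS16 was lost without knockdown replicates 1 or 2 or wild type replicates 2 or 3 (adjusted p up to 0.0826), RGS2 without knockdown replicate 1 or wild type replicates 2 or 3 (up to 0.0718) and RGS5 without knockdown replicate 3 (0.0612). The list had 9 calls with the replicate block, 5 higher and 4 lower, where 33.4% of all genes passed.

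The ERK and RhoA list held kinases and adaptors further downstream. Of its 18 tested genes 1 fell and none rose after knockdown, 5.56% against 19.4% of all genes, with a median log2 difference of 0.05. It was ROCK2, a kinase activated by RhoA, which fell by 0.57 (SE 0.11, limma adjusted p = 0.00613). RPS6KA2, a kinase activated by ERK, had a log2 difference of -0.60 (limma adjusted p = 0.0502), SHC1 one of 0.43 and ROCK1 one of -0.18, and these did not pass. A second gene of the list passed without overexpression replicate 1, without overexpression replicate 2 or without wild type replicate 1, where 20.9%, 19.8% and 16.6% of all genes passed. With the replicate block the list had 5 calls, 2 higher and 3 lower, where 33.4% of all genes passed, among them RPS6KA2 (limma adjusted p = 0.0145), SHC1 (0.00139) and ROCK1 (0.0477).

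Enzymes that make or cut kisspeptin, and inhibitors of the metalloproteinases among them, were tested as a list of 13. After knockdown 2 fell and none rose, 15.4% against 19.4% of all genes, with a median of 0.03. PCSK7, a proprotein convertase, averaged 912 ± 237 in knockdown and 1886 ± 507 in wild type cells (SD, n = 3 each), a fall of 1.05 on the log2 scale (SE 0.22). TIMP1, an inhibitor of metalloproteinases, averaged 10698 ± 610 and 16411 ± 859, a fall of 0.62 (SE 0.09). PAM, which adds the amide that kisspeptins carry at their end, had a log2 difference of 0.13 and MMP16 one of 0.46, and neither passed the test. MMP16 passed with the replicate block (limma adjusted p = 0.0434), where the list had 3 calls, 1 higher and 2 lower, against 33.4% of all genes.

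**Figure D3:**
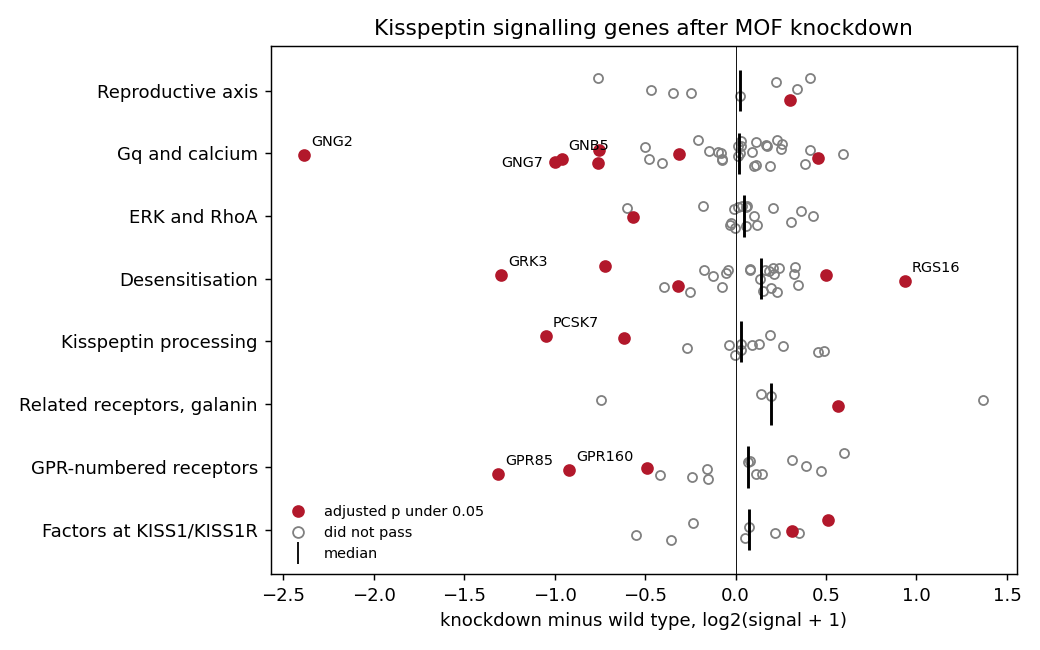
Difference in log2(signal + 1) between knockdown and wild type (x axis) for each tested gene of 8 lists (rows), filled red where the limma adjusted p was under 0.05 and open otherwise, with the list median as a bar. The medians lie between 0.02 and 0.19. On the brightest tested probe set of each gene, GNG2 at -2.38, GPR85 at -1.31 and GRK3 at -1.30 stand farthest below 0.

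Receptors related to KISS1R were mostly dim. Of 23 peptide receptors close to it in sequence and galanin ligands, all had a probe set and 5 were tested. After knockdown 1 of the 5, a ligand gene, rose and none fell, 20% against 19.4% of all genes and so near the background. GALR1 and GALR2, receptors for galanin, were left out as dim. GALR3 (log2 difference -0.74), SSTR3 (1.37), SSTR2 (0.14) and UTS2R (0.19) did not pass after knockdown. The one member called was the galanin gene GAL, which averaged 8804 ± 1002 in knockdown, 5868 ± 297 in overexpression and 5923 ± 289 in wild type cells (SD, n = 3 each), a log2 rise of 0.57 (SE 0.10, limma adjusted p = 0.00374). Of 55 receptors with a numbered GPR symbol 15 were tested, and 3 fell and none rose, a share near the 19.4% of all genes. Under the block 4 were lower and none higher, where 33.4% of all genes passed. GPR160 fell by 0.92 (SE 0.08), GPR85 by 1.31 (SE 0.22) and GPR180 by 0.49 (SE 0.14), the last of which was kept when either overexpression replicate 1 or 2 or wild type replicate 1 was left out and lost without any other array (adjusted p up to 0.134). GPR153 had a log2 difference of 0.31 and did not pass.

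Of 9 tested factors described at the promoter of KISS1 or KISS1R, 2 rose after knockdown and none fell, 22.2% against 19.4% of all genes, with a median of 0.08. TFAP2A, the factor AP-2 alpha, averaged 18356 ± 1744 in knockdown and 12840 ± 308 in wild type cells (SD, n = 3 each), a log2 rise of 0.51 (SE 0.09, limma adjusted p = 0.00376). IRF2BPL, a factor linked to the timing of puberty, rose by 0.31 (SE 0.07), a call lost without knockdown replicates 2 or 3 or wild type replicate 2 (adjusted p up to 0.0784), where 1 call was left in the list and 11.5%, 10.8% and 10.5% of all genes passed. CUX1 (-0.35), CBX7 (-0.55) and SP1 (0.08) did not pass. With the replicate block 3 were higher and 2 lower, where 33.4% of all genes passed, the lower ones CUX1 (limma adjusted p = 0.0140) and CBX7 (0.0276).

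The genes beside KISS1R on chromosome 19 were taken by position alone, the 10 nearest protein-coding genes on each side in the order of the RefSeq table for GRCh38.p14. All 20 had a probe set and 14 were tested. After knockdown 4 rose and none fell, 28.6% of 14 against 19.4% of all genes, with a median log2 difference of 0.26 against -0.04 over all genes. Under the block 5 were higher and 1 lower, where 33.4% of all genes passed. The genes next to KISS1R on either side had overlapping groups on the brightest probe set of each. R3HDM4 averaged 3870 ± 158 in knockdown, 4166 ± 555 in overexpression and 3884 ± 229 in wild type cells, and ARID3A, a DNA-binding protein gene, averaged 2203 ± 122, 2270 ± 345 and 2231 ± 143 in the same order (SD, n = 3 each). Their log2 differences between knockdown and wild type, -0.0044 and -0.02, did not pass the test. The other probe set of R3HDM4 averaged 2617 in knockdown and 2050 in wild type cells. Its log2 difference of 0.36 did not pass either (limma adjusted p = 0.0820), nor did that of 0.06 for the other probe set of ARID3A.

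CFD, which encodes complement factor D and lies 3 genes away, had signals of 4150.2, 5407.5 and 3962.4 in knockdown cells, against 2020.0, 1715.2 and 1835.3 in wild type cells. It had 2492.6, 2158.1 and 2428.2 in overexpression cells, above all wild type arrays, as KISS1R did. CFD had a log2 rise of 1.27 after knockdown (SE 0.13, limma adjusted p = 0.000278), and its log2 difference of 0.35 between overexpression and wild type did not pass (adjusted p = 0.323). CNN2, a calponin, rose by 0.72 (SE 0.13), TMEM259 by 0.62 (SE 0.18) and GPX4, a selenoenzyme that reduces lipid peroxides, by 0.37 (SE 0.09). MED16, a Mediator subunit 2 genes away, had a log2 difference of -0.34 and did not pass. The count was 2 without knockdown replicate 3 and 2 without wild type replicate 2, where 10.8% and 10.5% of all genes passed. TMEM259 was lost without knockdown replicates 1 or 3, overexpression replicate 3 or wild type replicates 2 or 3 (adjusted p up to 0.114), and GPX4 without knockdown replicates 2 or 3 or wild type replicate 2 (up to 0.0682).

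**Figure D4:**
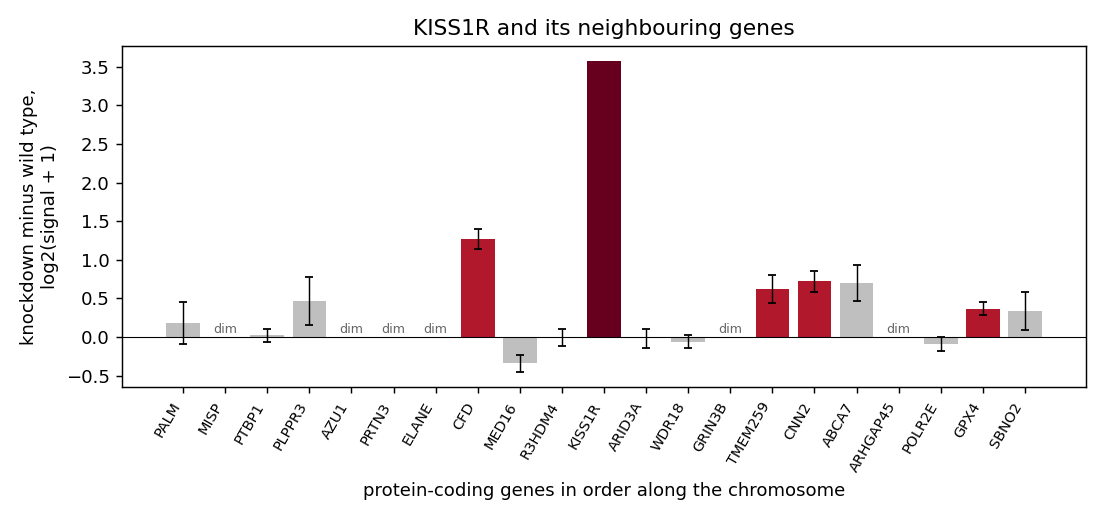
Difference in log2(signal + 1) between knockdown and wild type for KISS1R (dark red, no error bar, since it was chosen on this value) and the 10 protein-coding genes on each side, in chromosomal order, with the limma SE as a bar and red for an adjusted p under 0.05. On the brightest tested probe set of each gene, the adjacent R3HDM4 and ARID3A stand near 0 and CFD at 1.27. The 6 genes marked as dim were not tested.

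The genes whose pattern was most like that of KISS1R were found by Pearson's r of log2(signal + 1) over the 9 arrays, among 12035 other genes. These values describe 9 arrays in 3 groups, so r is set mainly by the group levels, and KISS1R itself was chosen on part of it. In all, 203 genes (1.69%) had r over 0.9 and 506 (4.20%) had r under -0.9. The 8 nearest were EME2 (r = 0.988), CHASERR (0.987), LGALS1 (0.985), SCO2 (0.983), FAM174C (0.983), PSMC3IP (0.983), DCXR (0.981) and HOXB7 (0.979). Each was highest in knockdown, next in overexpression and lowest in wild type cells by its mean. Their size of change was smaller than that of KISS1R.

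EME2, a subunit of a DNA endonuclease, averaged 2610 ± 122 in knockdown, 1285 ± 60.4 in overexpression and 972 ± 60.2 in wild type cells (SD, n = 3 each), with a knockdown signal 2.69 times that of wild type. LGALS1, which encodes galectin-1, averaged 7653 ± 343, 3984 ± 583 and 3295 ± 354 in the same order, 2.33 times. The long noncoding RNA gene CHASERR was 1.64 times as bright in knockdown as in wild type cells, and HOXB7, a positional homeobox gene, 1.69 times. The 4 most opposite genes were LSM3 (r = -0.990), GNG2 (-0.989), GRK3 (-0.987) and STEAP1 (-0.987). LSM3, a component of an RNA-binding ring in splicing, averaged 20266 ± 744 in knockdown, 26862 ± 552 in overexpression and 29723 ± 741 in wild type cells (SD, n = 3 each). On the brightest tested probe set of each gene, GNG2 and GRK3 were also the farthest below 0 after knockdown in their own lists. The dimmer tested probe set of RGS20 fell further than that of GRK3.

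**Figure D5:**
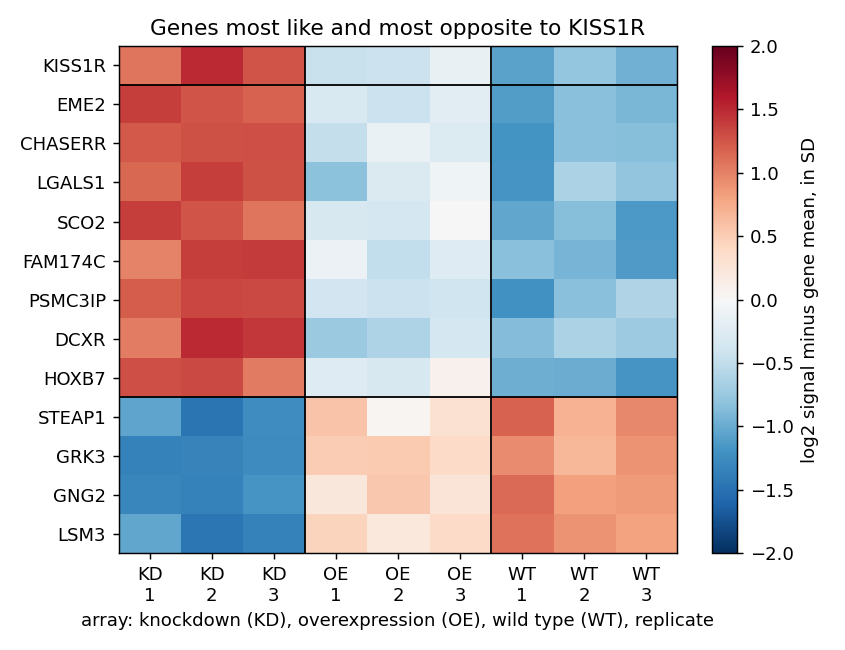
Log2 signal minus the gene's mean over 9 arrays, in units of the gene's SD (colour), for KISS1R, the 8 genes of highest and the 4 of lowest Pearson's r with it (rows), on the arrays of knockdown, overexpression and wild type (columns, replicates 1 to 3). By group mean, the upper 9 rows are high in knockdown and lowest in wild type, and the lower 4 rows run the opposite way. For LGALS1 and DCXR the overexpression array of replicate 1 lies below the wild type arrays of replicates 2 and 3.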

How the data were processed

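The deposited intensity values are linear signals, 1 per probe set and array, made by the authors with MAS5, per the submitters' processing notes (version not given in the sources used here). Dim signals vary more between arrays. Samples were grouped by title. From the deposited values log2(signal + 1) was computed. After 62 control probe sets were left out, 27307 probe sets with a mean at or above the median (7.564) were tested with limma 3.58.1 in R 4.3.3 (lmFit, eBayes with trend) in 1 two-sided fit of 9 arrays that leaves 6 residual degrees of freedom, and p-values were adjusted over all of them by Benjamini-Hochberg. The fit was tested on simulated data. Precision is limited by 3 arrays per group.

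Of 54675 probe sets 41097 had 1 symbol, 1801 several and 11777 none. Of those with 1 symbol 41043 matched RefSeq (GRCh38.p14) by Entrez ID, used for names and gene order alone. The brightest tested probe set stood for a gene. Named were KISS1R, KAT8, ligand and kin, the next 2 rises, up to 4 members of smallest p per list, called and adjacent neighbours and the 12 genes of extreme r. Other list members, and the genes above KISS1R among dim ones, were named after their values were seen. KISS1R and the lists were chosen with earlier results of these data known.

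Deviations from group means correlated between arrays of the same replicate number at 0.362, 0.144 and 0.137 for knockdown with wild type and 0.352, 0.237 and 0.106 for knockdown with overexpression, so the block is given there. For overexpression with wild type they were 0.447, 0.160 and 0.083, the last under the bound of 0.1, so those numbers were not taken as pairs. A planned limma test of KISS1R between them is not reported, since the wild type arrays took part in its choice. No 2 arrays were identical. Alternatives were quantile normalization, a pseudocount of 32, no filter and a filter at the 60th percentile, the replicate block, a term for replicate 1, only the 2 groups compared, no trend, each array left out and, added after seeing the data, replicates 2 and 3 alone.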

Additional observations from a re-analysis of the deposited data

How the results depend on the processing

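KISS1R was higher in knockdown and in overexpression than in wild type cells under every alternative run. Leaving out 1 array moved the knockdown difference from wild type between 3.40 and 3.73, that from overexpression between 2.44 and 2.78, and the overexpression difference from wild type between 0.80 and 1.09 on the log2 scale. The overexpression difference stayed at 0.96 with the replicate block or a term for replicate 1 and was 0.94 in replicates 2 and 3 alone. The deviations of overexpression and wild type correlated at 0.083 for replicate 3, under the bound of 0.1, so that block is not read as a paired test. For replicate 1 they correlated at 0.447, and the replicate 1 arrays of all groups shared dimmer poly-A controls. The replicate block gave 7637 calls after knockdown, 1022 after overexpression and 7334 between the treated groups, against 4289, 130 and 3963 without it. The term for replicate 1 gave 7706, 1109 and 7425. After overexpression there were 27 calls from only the 2 groups compared, 70 without trend and 220 from replicates 2 and 3 alone. With 1 array left out the counts ran from 2222 to 4623 after knockdown, from 25 to 99 after overexpression and from 2042 to 4161 between the treated groups. Pathway genes called after knockdown, 16, became 30 with the block, 32 with the term for replicate 1 and 28 with replicates 2 and 3 alone, and ran from 11 to 20 with 1 array left out. Neighbouring genes called, 4, became 2 without trend, and ran from 2 to 5 with 1 array left out. The cause of these moves was not tested. The brightest R3HDM4 probe set, near 0, turned sign at 0.0034 under quantile normalization. It ran from -0.050 to 0.035 with 1 array left out, and that of ARID3A from -0.063 to 0.034. KISS1R has 1 probe set, so no second one could be set beside it. The block ended no knockdown call of a named gene that was retested. Without trend GNB2, GNG7, GPR180, GPX4, IRF2BPL and TMEM259 were not called, without the filter GPR180 and TMEM259 were not, and under quantile normalization GPR180 was not. RPS6KA2, with limma adjusted p = 0.0502, passed under quantile normalization, the 60th percentile filter, the block, the term for replicate 1 and only the 2 groups compared. TAC1 passed with the term for replicate 1, and MMP16 with it, with the block and without trend. CBX7, SHC1 and WDR11 passed with the block, the term and replicates 2 and 3 alone, and CUX1 and ROCK1 with the block and the term.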
